A study of Mus musculus with 9 samples.

Results

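Sebum is a mixture of wax esters, triglycerides, sterol esters and other lipids that sebocytes, the cells of the sebaceous gland, load into droplets and release when they burst into the hair canal. A set of 10 genes of this programme was followed across age in sorted hair follicle stem cells. They were chosen by name, as enzymes and regulators of sebaceous lipid and wax synthesis: Far2, Awat2, Scd1, Elovl3, Soat1, Dgat2, Cidea, Mc5r, Pparg and Mgst1. Earlier results of these data were known at that choice. All 10 were found among the 37980 rows of the table, and 9 passed the filter on low values.

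RNA was measured by sequencing in keratinocytes sorted from the back and belly skin of male C57BL/6J mice, with no genetic change or treatment named in the labels. High CD49f (integrin alpha 6) and CD34 on the surface mark the basal cells of the bulge, the part of the follicle that holds its stem cells. Mice were 3, 19 or 24 months old, with 3 libraries per age and 9 in all. Labels number the libraries of the 3- and 19-month mice 1 to 3, and those of the 24-month mice 2 to 4. Whether each library is a separate animal is not stated, so the p-values cover the spread among libraries alone, and that may be technical.

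Upstream of the gland, stem cells of the follicle and of the junction between follicle and gland can supply cells that become sebocytes. In a sebocyte, Scd1 and Elovl3 shape fatty acids, Far2 reduces fatty acyl-CoA to fatty alcohol, and Awat2 joins the alcohol to another acyl chain to give a wax ester. Soat1 makes cholesteryl ester, Dgat2 makes triglyceride, and Cidea helps droplets grow. Pparg is a nuclear receptor that drives lipid genes, and Mc5r is a melanocortin receptor whose loss lowers sebum output in mice. Mgst1 is a membrane-bound glutathione transferase.

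The promoters of members that behaved differently with age are shown so that the sequence before the start site stands beside the values. RefSeq promoter windows on mouse build GRCm38.p6 were found for 5 of the 10 members, in 9 windows. The 250 bases before a start site are printed 5′ to 3′ on the gene's strand for Far2 and Soat1, which were lower at the older ages, and for Mgst1, which was higher at 24 months. Capitals mark matches to the 4 motifs searched on both strands, AGGTCA (a nuclear receptor element), CCAAT (the NF-Y box), GGGCGG (the GC box) and TATAAA (the TATA box), none of which overlapped another here.
Far2, chr6:148047166-148047415, plus strand: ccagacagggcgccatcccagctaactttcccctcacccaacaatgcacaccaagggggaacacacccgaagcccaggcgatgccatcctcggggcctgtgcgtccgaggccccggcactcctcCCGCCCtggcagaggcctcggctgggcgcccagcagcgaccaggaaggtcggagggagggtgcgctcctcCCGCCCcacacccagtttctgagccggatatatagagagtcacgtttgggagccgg
Soat1, chr1:156474329-156474578, minus strand: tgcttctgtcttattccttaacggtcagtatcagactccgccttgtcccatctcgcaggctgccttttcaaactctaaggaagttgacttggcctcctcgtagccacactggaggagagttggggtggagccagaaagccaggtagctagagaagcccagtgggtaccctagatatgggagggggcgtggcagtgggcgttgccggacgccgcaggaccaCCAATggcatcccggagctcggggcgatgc
Mgst1, chr6:138140277-138140526, plus strand: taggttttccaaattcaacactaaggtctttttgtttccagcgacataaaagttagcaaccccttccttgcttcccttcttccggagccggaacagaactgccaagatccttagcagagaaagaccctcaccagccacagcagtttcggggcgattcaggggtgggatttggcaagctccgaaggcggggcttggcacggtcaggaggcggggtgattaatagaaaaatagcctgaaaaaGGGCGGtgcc

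The Far2 window held 2 GC boxes on the opposite strand, 126 to 121 and 56 to 51 bases before the start. The Soat1 window held 1 NF-Y box, 30 to 26 bases before the start, and the printed Mgst1 window 1 GC box, 10 to 5 bases before it. Another Mgst1 window, chr6:138141337-138141586 and not printed, held 0 matches. Over all 32851 windows of the same length, 32.7% held the GC box, 33.8% the NF-Y box, 14.0% AGGTCA and 12.4% the TATA box. AGGTCA was in none of the windows of Far2, Soat1, Mgst1 and Awat2, and in 2 of the 3 windows of Pparg itself. These matches are descriptions of letters in the windows printed and searched.

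Values are FPKM, fragment numbers corrected for transcript length and for how many fragments mapped in each library, as deposited. They were compared with limma on log2(FPKM + 1) by two-sided tests, and a gene was called where its Benjamini-Hochberg adjusted p was under 0.05. The whole-table fit held the 14275 rows that reached 1 FPKM in 3 or more libraries. A protein-coding fit held the 11509 protein-coding genes among them, and it was known from earlier results to call more genes. Each log2 change refers to log2(FPKM + 1), so that of a low gene is understated, and carries limma's standard error. The 19- and 24-month libraries were each compared with the same 3-month libraries, so the 2 comparisons are not independent. In the labels' running numbers the 3-month libraries form a separate, earlier block from the others, so a run or pool difference between 3 months and the older ages cannot be told apart from age. Summed over all rows, FPKM was 25020000 to 68770000 at 3 months, 12090000 to 20770000 at 19 months and 8705000 to 20340000 at 24 months. Over protein-coding rows the sums overlapped, at 553400 to 621500, 593800 to 715900 and 610300 to 738600. The part of this difference in the results was not tested.

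The sorted cells carried bulge markers at every age. Over the 9 libraries, Cd34 and Itga6, the genes of the sort markers, read 403 to 632 and 72.7 to 116.5 FPKM. Postn and Lhx2, also bulge markers, read 592 to 1138 and 76.3 to 161.7 FPKM. The summed FPKM of 12 bulge markers lay between 8678 and 14540 at 3 months, 6365 and 7226 at 19 months and 8522 and 14800 at 24 months. Most of that sum came from the basal keratins Krt14 (3235 to 6619 FPKM over the 9 libraries) and Krt5, and the lower sums at 19 months include Krt5 at 0. Krt15, a bulge keratin, was listed at 0 in all 9 libraries and Krt5, a basal keratin, in all 3 at 19 months, so an exact 0 in this table can be a failed estimate. Among the bulge markers, Lgr5, a receptor of follicle stem cells, stood at 121, 78.7 and 59.3 FPKM at 3, 19 and 24 months. Lgr5 fell by 1.01 ± 0.17 at 24 months in the fit of protein-coding genes described above (limma, adjusted p = 0.00581), in all 9 fits that left out 1 library. Nfatc1, a factor that keeps these cells quiescent, stood at 35.5, 61.2 and 45.1 FPKM and rose by 0.78 ± 0.17 at 19 months in that fit (limma, adjusted p = 0.0264), in 5 of 9, with adjusted p = 0.128 without 19-month library 2. The absolute depth is unknown. Steps between low values gave the relative worth of 1 fragment, and its highest value over the libraries was 1.46 times its lowest.

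Across the members, 6 of the 9 tested were lower in every older library than in any 3-month library at both 19 and 24 months: Far2, Cidea, Scd1, Soat1, Elovl3 and Mc5r. Dgat2 at 19 months and Mgst1 at 24 months were higher without overlap. Over all rows tested, 10.9% and 11.0% were lower without overlap at 19 and 24 months, and 10.5% and 10.3% were higher. Soat1 and Mc5r passed the filter only through the 3-month libraries, so a difference was built into their entry. In the whole-table fit, Far2, Scd1 and Mc5r fell at 19 months, and Scd1 fell at 24 months. That fit called 0.280% of all rows at 19 months (0.224% lower, 0.0560% higher) and 0.203% at 24 months (0.168% lower, 0.0350% higher). In the protein-coding fit all 6 fell at both ages and Mgst1 rose at 24 months, against 1.56% of genes called at 19 months (0.964% lower, 0.600% higher) and 3.84% at 24 months (2.34% lower, 1.50% higher). With a robust prior variance on the whole table, Far2, Scd1, Soat1 and Mc5r fell at 19 months, against 0.504% of rows called (0.364% lower, 0.140% higher). At 24 months Far2, Scd1 and Soat1 fell and Mgst1 rose, against 1.57% (0.995% lower, 0.574% higher). With the rows listed at 0 left out of the whole-table fit, Scd1 and Mc5r fell at 19 months, where 0.190% of rows were called (0.147% lower, 0.0421% higher), and neither a member nor any other row was called at 24 months or between 19 and 24 months (0% each). The median log2 change of the 9 members was -1.30 at 19 and -1.14 at 24 months, against 0.00 over all rows in each comparison. The 19-month median was the value of Mc5r itself. Because Soat1 and Mc5r entered through the 3-month libraries, and the members were chosen with earlier results known, part of this contrast may be built in.

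**Figure D1:**
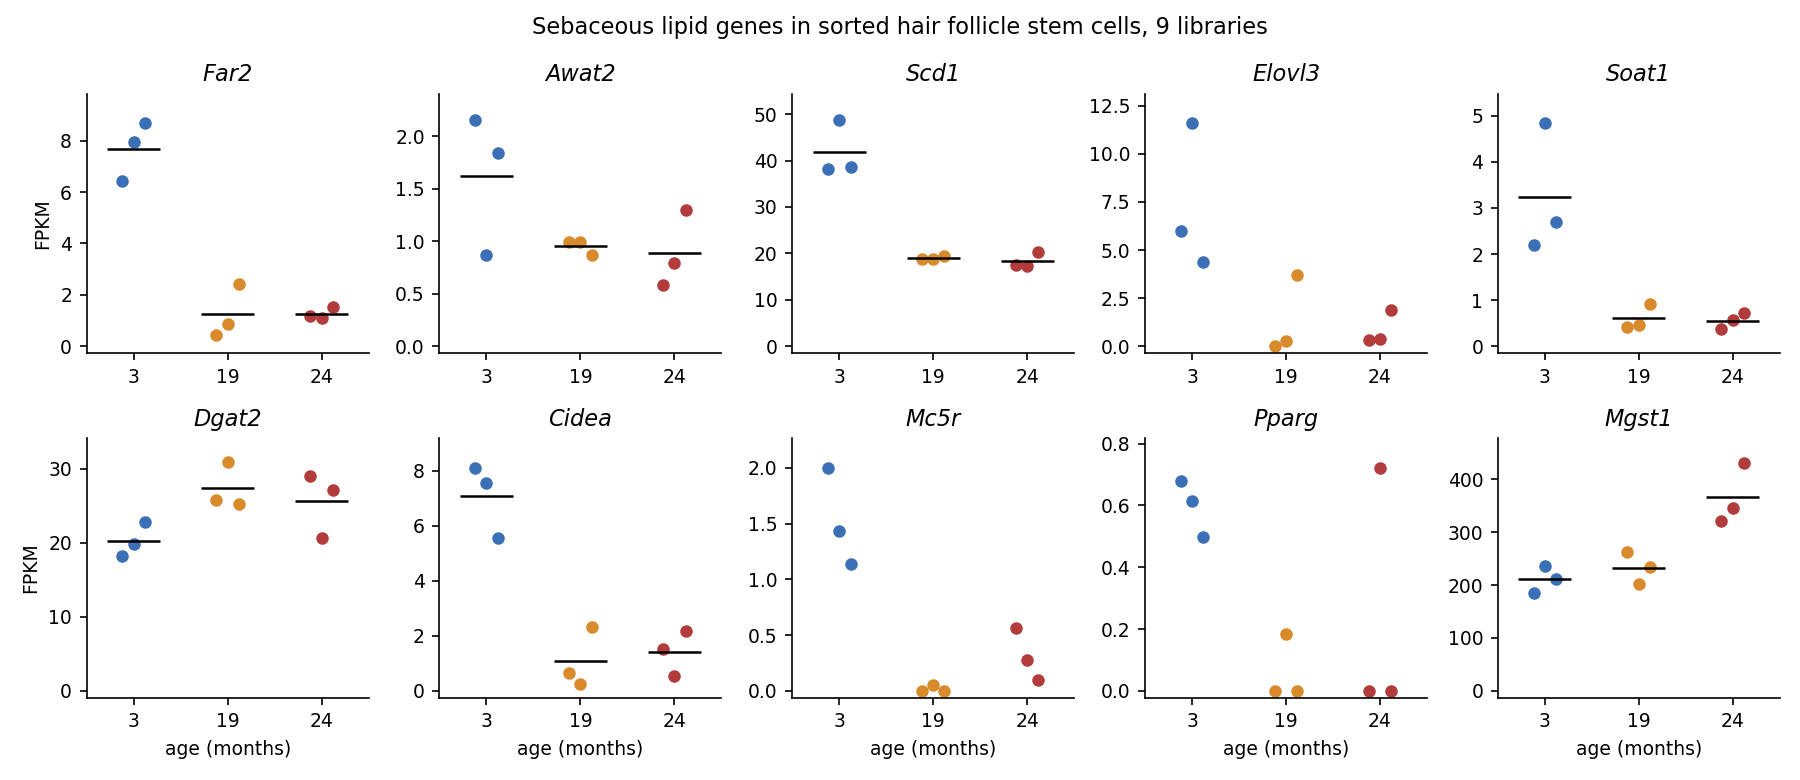
FPKM of the 10 members in each of the 9 libraries, one panel per gene with its own linear axis from 0; points are libraries and bars are the mean at each age, left out for Elovl3, Mc5r and Pparg, which are listed at 0 in some libraries. Far2, Cidea, Scd1, Soat1, Elovl3 and Mc5r have all 3 of the 3-month points above all older points, while Mgst1 is highest at 24 months.

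Far2, which supplies the fatty alcohol of wax esters, was 1 of the 2 wax genes and was lower at both older ages. It stood at 6.42, 7.93 and 8.69 FPKM in the 3-month libraries, at 0.420, 0.877 and 2.44 at 19 months and at 1.17, 1.09 and 1.54 at 24 months. The lowest 3-month library was above the highest older one, 19-month library 3. Means were 7.68 ± 1.15 at 3 months, 1.25 ± 1.06 at 19 months and 1.27 ± 0.239 at 24 months (SD, n = 3), 6.17-fold and 6.07-fold lower than at 3 months. In the whole-table fit of limma, Far2 fell by 2.04 ± 0.30 at 19 months (adjusted p = 0.0477), and its change at 24 months was -1.94 ± 0.30 (adjusted p = 0.0545). The latter passed without 19-month library 1 or 3 (adjusted p = 0.0417 and 0.0160). In the protein-coding fit it fell at both ages (limma, adjusted p = 0.00116 and 0.00202). The 19-month call of the whole-table fit held in 1 of 9 fits that left out 1 library (adjusted p = 0.00575 without 19-month library 3), and its adjusted p was 0.0820 to 0.218 in the other fits, while both calls of the protein-coding fit held in all 9. In bulk libraries, fewer cells that carry a transcript and less of it in each cell cannot be told apart.

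Awat2, which makes the wax ester itself, did not pass either test. Its FPKM was 2.15, 0.872 and 1.84 at 3 months, 0.993, 0.992 and 0.866 at 19 months and 0.581, 0.791 and 1.29 at 24 months. The ages overlapped, since 3-month library 2 lay inside the range of the older libraries. The change was -0.39 ± 0.22 at 19 months and -0.46 ± 0.22 at 24 months (limma whole-table fit, adjusted p = 0.461 and 0.313), with 95% intervals from -0.90 to 0.12 and from -0.97 to 0.05.

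Scd1, which puts a double bond into saturated fatty acids, was the most precisely measured of the lower members. It read 38.1, 48.8 and 38.6 FPKM at 3 months, 18.7, 18.7 and 19.4 at 19 months and 17.5, 17.4 and 20.4 at 24 months. Every older library was below every 3-month library. Means were 41.9 ± 6.04, 18.9 ± 0.398 and 18.4 ± 1.70 FPKM (SD, n = 3), 2.21-fold and 2.27-fold apart from 3 months. Scd1 fell by 1.10 ± 0.12 at 19 months and by 1.14 ± 0.12 at 24 months in the whole-table fit (limma, adjusted p = 0.0197 and 0.0276), and by the same amounts in the protein-coding fit (limma, adjusted p = 0.00116 and 0.00111). The whole-table call at 19 months was lost without 3-month library 1 (adjusted p = 0.0607) or without 19-month library 1, 2 or 3 (adjusted p = 0.0746, 0.101 and 0.0700). At 24 months it was lost without 3-month library 1 or 3, 19-month library 2, or 24-month library 2 or 3 (adjusted p = 0.0575, 0.0658, 0.0545, 0.0691 and 0.0654). Both calls of the protein-coding fit held in all 9 fits that left out 1 library. Part of the reads of Scd1 may belong to its near-identical relative Scd3, described with the relatives. Between 19 and 24 months the change was -0.04 ± 0.12, with a 95% interval from -0.32 to 0.24.

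Elovl3, an elongase of saturated and monounsaturated fatty acids that is abundant in sebaceous gland, varied most among libraries. It read 6.01, 11.6 and 4.36 FPKM at 3 months, 0, 0.264 and 3.73 at 19 months and 0.313, 0.386 and 1.89 at 24 months, and the ages did not overlap with 3 months. Because 19-month library 1 is listed at 0, no mean is given. In the whole-table fit the changes were -2.10 ± 0.62 and -2.17 ± 0.62 (limma, adjusted p = 0.233 and 0.144). In the protein-coding fit it fell at both ages (limma, adjusted p = 0.0373 and 0.0209). That 19-month call was lost without 3-month library 1 or 2, or 19-month library 1 or 2 (adjusted p = 0.109, 0.129, 0.0838 and 0.129), and the 24-month call without 3-month library 2, 24-month library 2 or 24-month library 3 (adjusted p = 0.110, 0.0705 and 0.0569).

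Soat1, which esterifies cholesterol, was low at every age. Its FPKM was 2.19, 4.85 and 2.69 at 3 months, 0.420, 0.466 and 0.922 at 19 months and 0.364, 0.559 and 0.715 at 24 months. No older library reached the lowest 3-month one, and the gene passed the filter on low values only through the 3-month libraries. Means were 3.25 ± 1.41, 0.603 ± 0.278 and 0.546 ± 0.176 FPKM (SD, n = 3). The changes in the whole-table fit were -1.37 ± 0.24 and -1.41 ± 0.24 (limma, adjusted p = 0.102 and 0.0632), and Soat1 fell in the protein-coding fit (limma, adjusted p = 0.00770 and 0.00496), in all 9 fits that left out 1 library for both ages.

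Dgat2, which adds the last acyl chain of a triglyceride, was not among the lower members. It read 18.3, 19.9 and 22.8 FPKM at 3 months, 25.9, 31.0 and 25.2 at 19 months and 29.1, 20.6 and 27.2 at 24 months. All 19-month libraries were above all 3-month ones, and the 24-month ones overlapped both ages. The change was 0.41 ± 0.16 at 19 months and 0.31 ± 0.16 at 24 months (limma whole-table fit, adjusted p = 0.312 and 0.326), and the protein-coding fit gave adjusted p = 0.216 and 0.262 by limma.

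Cidea, which promotes the fusion and growth of lipid droplets, read 8.11, 7.55 and 5.55 FPKM at 3 months. It read 0.654, 0.240 and 2.32 at 19 months and 1.52, 0.523 and 2.16 at 24 months. The lowest 3-month library was more than the highest older one, and the spread among the older libraries was wide. Means were 7.07 ± 1.34, 1.07 ± 1.10 and 1.40 ± 0.825 FPKM (SD, n = 3), 6.60-fold and 5.05-fold lower than at 3 months. The whole-table fit gave changes of -2.08 ± 0.40 and -1.80 ± 0.40 (limma, adjusted p = 0.118 and 0.0870), and Cidea fell in the protein-coding fit (limma, adjusted p = 0.00377 and 0.00810), in all 9 fits that left out 1 library for both ages.

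Mc5r, the melanocortin receptor of sebocytes, was read at 1.999, 1.44 and 1.14 FPKM at 3 months, at 0, 0.0535 and 0 at 19 months and at 0.567, 0.274 and 0.0983 at 24 months. The 3-month libraries were above all older ones, and the gene passed the filter on low values only through them. A pair of 19-month libraries is listed at 0, which can be a failed estimate, so no fold is given. In the whole-table fit Mc5r fell by 1.30 ± 0.18 at 19 months (limma, adjusted p = 0.0370), a call that held in 1 of 9 fits that left out 1 library, without 24-month library 2 (adjusted p = 0.0498), and its adjusted p was 0.0526 to 0.161 in the other fits. At 24 months the change was -0.95 ± 0.18 (limma, adjusted p = 0.0715). In the protein-coding fit Mc5r fell at both ages (limma, adjusted p = 0.00377 and 0.0178), and the 24-month call was lost without 3-month library 1 or 2 or 24-month library 4 (adjusted p = 0.0591, 0.0626 and 0.0897).

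Pparg did not pass the filter, with no library at 1 FPKM, and entered neither fit. It was listed at 0.680, 0.615 and 0.498 FPKM at 3 months, 0, 0.183 and 0 at 19 months and 0, 0.721 and 0 at 24 months. The 3-month libraries were above all those of 19 months and below 24-month library 3. An exact two-sided permutation test over libraries gave p = 0.1 at 19 months, the smallest p that 3 against 3 libraries allow, and p = 0.4 at 24 months.

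Mgst1, the membrane-bound glutathione transferase, was the most abundant member at every age, with 3.3% to 5.6% of tested rows above it. It read 184.8, 236.8 and 212.4 FPKM at 3 months, 262.4, 202.2 and 234.8 at 19 months and 321.1, 346.6 and 430.3 at 24 months. Every 24-month library was above every other library, while 3 and 19 months overlapped. Means were 211 ± 26.0, 233 ± 30.1 and 366 ± 57.2 FPKM (SD, n = 3), 1.73-fold higher at 24 than at 3 months. Mgst1 rose by 0.79 ± 0.15 at 24 against 3 months in the protein-coding fit (limma, adjusted p = 0.0123), where the call was lost without 24-month library 4 (adjusted p = 0.0641), and had adjusted p = 0.0807 by limma in the whole-table fit. At 19 months the change was 0.14 ± 0.16, with a 95% interval from -0.24 to 0.52.

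Between 19 and 24 months no member passed either limma fit, with 0 of 9 called in each. Mgst1 alone had an unadjusted p under 0.05 in either fit, with a change of 0.65 ± 0.16 and an adjusted p of 0.264 in the whole-table fit and 0.0621 in the protein-coding fit of limma. Over all rows, 1526 had an unadjusted p under 0.05 in the whole-table fit and 1468 in the protein-coding fit. The whole-table fit called 0.0490% of all rows in this comparison (0.0280% lower, 0.0210% higher) and the protein-coding fit 0.930% (0.217% lower, 0.712% higher). The libraries of the 2 ages did not overlap for Mgst1 and for Mc5r, both higher at 24 months, while 9.44% of all rows were lower and 7.85% higher without overlap. With a robust prior variance no member passed either, against 0.189% of rows called (0.0350% lower, 0.154% higher). The 95% intervals were from -0.58 to 0.80 for Far2, from -0.64 to 1.19 for Cidea, from -0.60 to 0.51 for Soat1 and from -1.49 to 1.37 for Elovl3.

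**Figure D2:**
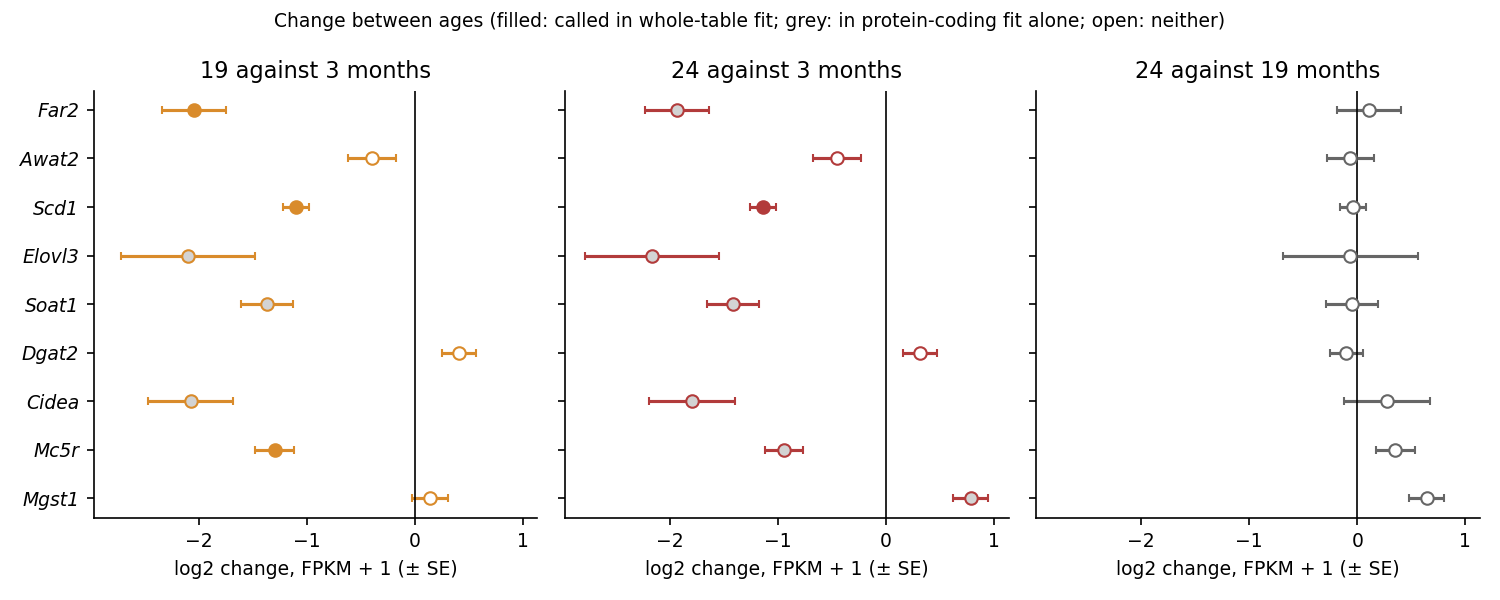
Log2 change of the 9 tested members at 19 against 3, 24 against 3 and 24 against 19 months on the log2(FPKM + 1) scale; points are limma estimates of the whole-table fit and bars their standard errors. Filled points passed the whole-table fit, grey ones the protein-coding fit alone and open ones neither. Far2, Cidea, Scd1, Soat1, Elovl3 and Mc5r lie between -2.17 and -0.95 at both older ages against 3 months, and Mgst1 lies at 0.79 at 24 against 3 months.

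The levels order the members by abundance per length. Mgst1 was first at each age by mean FPKM. Scd1 came next and then Dgat2 at 3 months, and they were in the reverse order at 19 and 24 months. At 19 months their values did not overlap (18.7 to 19.4 for Scd1 and 25.2 to 31.0 for Dgat2). At 24 months Scd1 stood at 17.4 to 20.4 and Dgat2 at 20.6 to 29.1, which also did not overlap. Of the tested rows, 53.6% to 59.1% were above Far2 in the 3-month libraries, 78.7% to 97.1% at 19 months and 86.7% to 93.3% at 24 months.

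Among the closest relatives of the members, Scd3 fell at both older ages and Elovl4 and Elovl7 fell at 19 months, all in the protein-coding fit, and the others named here passed neither fit or were not tested. At 24 months Elovl4 and Elovl7 did not pass it (limma, adjusted p = 0.107 and 0.119), and whether their changes differed between the 2 ages was not called (limma, 24 against 19 months, adjusted p = 0.41 and 0.582). Far1, the other fatty acyl-CoA reductase, stood at 20.8 FPKM at 3 months, 20.2 at 19 months and 14.9 at 24 months and was not called. Dgat1, the other diacylglycerol acyltransferase, stood at 28.2, 23.7 and 25.5 FPKM and was not called. Soat2, the other sterol acyltransferase, was under the filter at 0.631, 0.629 and 0.715 FPKM, and Awat1, the other wax synthase, was listed at 0 in 4 of 9 libraries. Cideb was under the filter, and Cidec was read at 0.188, 0.128 and 0.309 FPKM at 3 months and listed at 0 in the other 6 libraries, and Mc1r stood at 0.195, 0.165 and 0.176 FPKM. Ppara and Ppard, the other nuclear receptors of the family, stood at 1.98, 2.55 and 2.72 and at 2.29, 2.28 and 2.36 FPKM, and neither passed a test.

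Scd3 is a desaturase nearly identical to Scd1. It read 1.38, 3.50 and 2.31 FPKM at 3 months, 0.209, 0.232 and 0.525 at 19 months and 0.469, 0.409 and 0.772 at 24 months. It fell by 1.32 ± 0.23 at 19 months and by 1.09 ± 0.23 at 24 months in the protein-coding fit (limma, adjusted p = 0.00829 and 0.0166), the second call being lost in 2 of 9 fits that left out 1 library, with adjusted p = 0.0844 without 3-month library 2. Scd3 too passed the filter only through the 3-month libraries. How reads were shared between Scd1 and Scd3 is stated in no source used here, and the split between them is uncertain. Scd2, a desaturase of the same family, stood at 8.47, 8.98 and 4.27 FPKM, with adjusted p = 0.0605 by limma at 24 months in the protein-coding fit.

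Of the elongases, Elovl4, which extends very long chains, stood at 26.9, 15.7 and 19.6 FPKM and fell at 19 months in the protein-coding fit (limma, -0.76 ± 0.15, adjusted p = 0.0189), a call that was lost in 3 of 9 fits that left out 1 library, with adjusted p = 0.118 without 19-month library 3. Elovl7 stood at 5.71, 2.77 and 3.62 FPKM and fell at 19 months (limma, adjusted p = 0.0397), a call that held in 3 of 9 fits that left out 1 library, with adjusted p = 0.178 without 19-month library 3. Elovl1 stood at 107, 139 and 127 FPKM, Elovl5 at 37.0, 39.3 and 25.1 and Elovl6 at 9.22, 6.53 and 5.40, and none passed. Elovl2 did not pass the filter. Mgst3 stood at 95.6, 115 and 133 FPKM (limma, adjusted p = 0.051 at 24 months in the protein-coding fit) and Mgst2 at 11.1, 6.81 and 10.6.

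**Figure D3:**
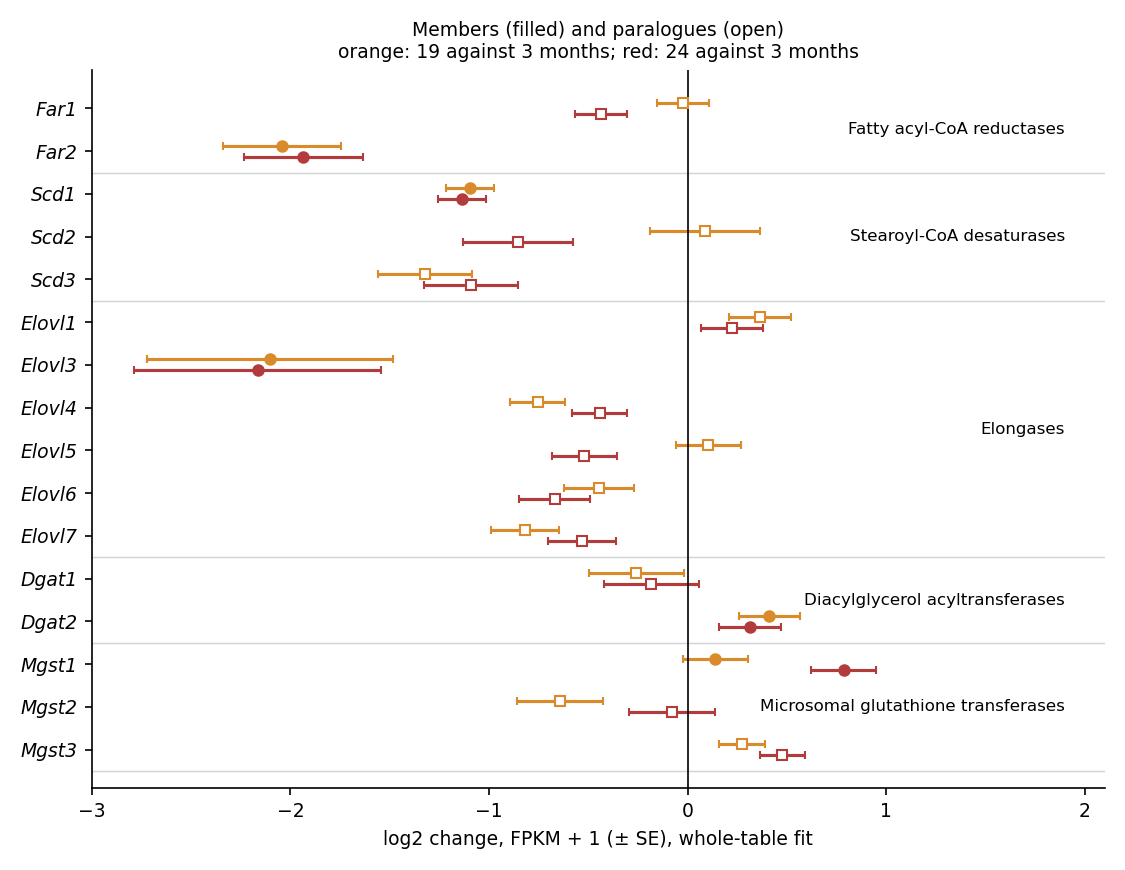
Log2 change of 5 members (filled) and their tested relatives (open) on the log2(FPKM + 1) scale, at 19 against 3 months in orange and 24 against 3 months in red; points are whole-table limma estimates and bars their standard errors. Far2 lies at -2.04 and -1.94 and Far1 at -0.02 and -0.44, while Scd3 lies beside Scd1.

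The pathways around the members were counted over 12 lists with 158 genes beside the members, of which 123 were tested. The median log2 change of the 123 was -0.06 at 19 and -0.11 at 24 months, against 0.00 over all rows. The whole-table fit called 2 lower at 19 months (Fa2h and Mgll), 1 lower at 24 months (Fa2h) and none higher. The protein-coding fit called 6 lower and 1 higher of the 123 at each age, beside 0.964% lower and 0.600% higher over all its genes at 19 months and 2.34% and 1.50% at 24 months. The genes that fell at 19 months in the protein-coding fit were Fa2h, Scd3, Mgll, Elovl4, Elovl7 and Krt79, and Sox9 rose. At 24 months they were Fa2h, Scd3, Fasn, Lclat1, Slc27a1 and Alox5ap, and Gata6 rose. None of the 4 tested wax and fatty alcohol genes beside Far2 and Awat2, and none of the 5 tested sterol esterification genes beside Soat1, passed either fit against 3 months. Of 16 tested genes of fatty acid synthesis and its regulators, 0 were called at 19 months and 1, Fasn, fell in the protein-coding fit at 24 months. The list of fatty acid elongation, with 10 tested genes beside Elovl3, had 2 that fell at 19 months and 0 at 24 months in that fit. Against those shares over all genes, counts this small set no single list apart.

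Fa2h, which hydroxylates fatty acids for the skin's ceramides and sebaceous lipids, followed Far2 most closely. It read 2.51, 2.27 and 1.94 FPKM at 3 months, 0, 0.0348 and 0.582 at 19 months and 0.267, 0.232 and 0.290 at 24 months. It fell by 1.46 ± 0.19 at 19 months and 1.36 ± 0.19 at 24 months in the whole-table fit (limma, adjusted p = 0.0337 and 0.0483) and fell in the protein-coding fit at both ages, also in all 9 fits that left out 1 library. Like Soat1 and Mc5r, Fa2h passed the filter on low values only through the 3-month libraries. With 19-month library 1 listed at 0, no mean is given. Mgll, which breaks down monoglyceride, stood at 19.7, 11.5 and 18.6 FPKM and fell by 0.73 ± 0.10 at 19 months in the whole-table fit (limma, adjusted p = 0.0437). It rose by 0.66 ± 0.14 against 19 months in the protein-coding fit (limma, adjusted p = 0.0369), in 3 of 9 fits that left out 1 library, with adjusted p = 0.186 without 19-month library 2. Plin2, a coat protein of lipid droplets, stood at 73.8, 104 and 62.9 FPKM and fell by 0.72 ± 0.16 at 24 against 19 months in the protein-coding fit (limma, adjusted p = 0.0457), in 3 of 9 fits that left out 1 library, with adjusted p = 0.239 without 24-month library 4.

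Fasn, the fatty acid synthase, stood at 20.7 ± 4.96, 14.1 ± 2.36 and 8.74 ± 2.80 FPKM (SD, n = 3) and fell at 24 months in the protein-coding fit (limma, -1.18 ± 0.22, adjusted p = 0.0109), in all 9 fits that left out 1 library. Slc27a1, a fatty acid transporter, stood at 24.1, 18.7 and 13.9 FPKM and fell at 24 months (limma, adjusted p = 0.0166), in 6 of 9 fits that left out 1 library. Lclat1, which remodels phospholipid chains, stood at 8.89, 7.41 and 4.59 FPKM and fell at 24 months (limma, adjusted p = 0.0387), in 4 of 9. Gata6, a regulator of the junction between follicle and gland, stood at 2.05, 3.31 and 4.52 FPKM and rose at 24 months (limma, adjusted p = 0.0277), in 5 of 9 fits that left out 1 library. With 1 library left out, their adjusted p reached 0.0868 for Slc27a1 (without 24-month library 4), 0.148 for Lclat1 and 0.129 for Gata6 (both also without it). Sox9, a transcription factor of follicle stem cells, read 101.6 to 128 FPKM at 3 months and 175.2 to 193.2 at 19 months and rose by 0.66 ± 0.15 (limma, adjusted p = 0.0348), in 5 of 9 fits that left out 1 library, with adjusted p = 0.15 without 3-month library 1. Alox5ap, the partner of arachidonate 5-lipoxygenase in leukotriene synthesis, read 13.1, 1.30 and 10.8 FPKM at 3 months and 0.638 to 1.65 at 24 months and fell by 1.85 ± 0.49 (limma, adjusted p = 0.0481), in 4 of 9 such fits, with adjusted p = 0.147 without 3-month library 3; its 3-month library 2 lay inside the range of the older libraries.

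**Figure D4:**
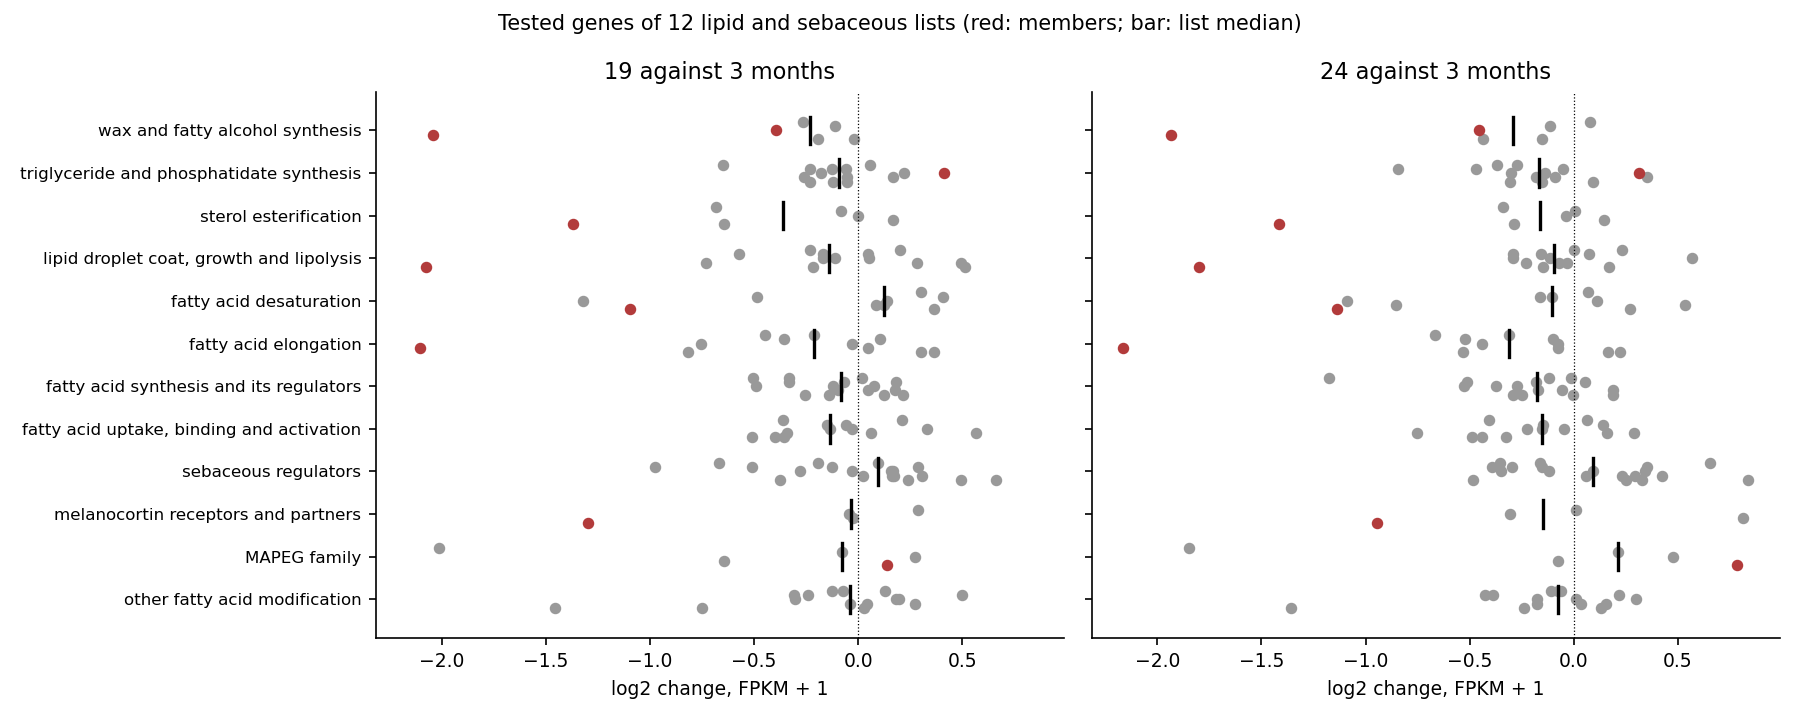
Log2 change, on the log2(FPKM + 1) scale, of the tested genes of 12 lists at 19 and 24 against 3 months, one row per list; points are genes, members in red, and bars are list medians. List medians lie between -0.36 and 0.21, and Far2, Soat1, Cidea and Elovl3 lie lowest in their lists at both ages.

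The profile nearest to each tested member was sought among protein-coding genes by the root mean square distance of centred log2(FPKM + 1) over the 9 libraries. Fa2h was nearest to Far2 (distance 0.350 log2) and Cidea was second (0.353). Far2 was nearest to Cidea, with Fa2h second (0.406), and Cidea nearest to Elovl3 (0.470). Ndfip1 was nearest to Scd1 (0.147), Gm13178 to Soat1 (0.159), Cish to Mc5r (0.158) and Arid4b to Awat2 (0.154). Krt32 was nearest to Mgst1 (0.127) and Gstk1 to Dgat2 (0.0550). All 9 profiles share the same libraries, and these distances describe them only.

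Within an age, the libraries differed in the same direction for several members. The 19-month library 3 was the highest of its age for Far2, Cidea, Scd1, Soat1 and Elovl3, and 24-month library 4 was the highest of its age for these 5 and for Awat2 and Mgst1. Without 19-month library 3, Far2 had an adjusted p of 0.00575 by limma at 19 months in the whole-table fit. The part of these libraries in the results was not tested further.

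Markers of other cells were summed per library. The 12 sebocyte markers beside the members, of which 7 were tested, summed to 207.5 to 227.7 FPKM at 3 months, 194.8 to 224 at 19 months and 160 to 183.7 at 24 months. Plin2 and Acsbg1 made up most of these sums. Plin2 read 63.4 to 84.9, 89.7 to 115.8 and 51.1 to 71.7 FPKM, and Acsbg1 68.0 to 93.5, 57.0 to 61.0 and 51.9 to 62.6. Acsbg1 passed neither fit. Without overlap, 3 of the 7 were lower and 2 higher at 19 months (10.9% and 10.5% of all rows). At 24 months 3 were lower and 1 higher (11.0% and 10.3%). Of the 7, 3 were above 0 in log2 change at 19 months, with a median of -0.02, and 2 at 24 months, with a median of -0.36. The protein-coding fit called 1 lower at 19 months and 1 higher at 24 months, and the whole-table fit called none. Krt79, a keratin of the junction and gland duct in this list, stood at 35.0, 17.3 and 26.8 FPKM and fell at 19 months in the protein-coding fit (limma, adjusted p = 0.013), a call lost without 3-month library 2 (adjusted p = 0.0623). Gata6, described above, was the marker that rose at 24 months. Plin2 had changes of 0.49 ± 0.17 at 19 and -0.23 ± 0.17 at 24 months and did not pass a test against 3 months. Prdm1, a regulator tied to sebaceous precursors, was read at 1.02 to 1.42 FPKM at 3 months and 0.241 to 0.764 in the older libraries, with adjusted p = 0.162 and 0.268 by limma, and it passed the filter only through the 3-month libraries. Plin5 was listed at 0 in 6 of 9 libraries. Lrig1, Plet1 and Defb6, the others of this list, passed neither fit. The suprabasal markers Krt1, Krt10, Lor and Ivl were also summed, with none of the 4 called. Their sums were 104.4 to 127.5 FPKM at 3 months, 80.78 to 99.2 at 19 months and 87.88 to 180.5 at 24 months. The 6 melanocyte markers summed to 37.09 to 45.86 FPKM at 3 months, 31.5 to 32.77 at 19 months and 29.04 to 34.6 at 24 months. All 5 tested were below 0 in log2 change at both ages, with medians of -0.61 and -0.56. Without overlap, 3 were lower at 19 and 2 at 24 months, beside 10.9% and 11.0% of all rows. Of the 5, only Tyrp1, a melanin enzyme, fell in the protein-coding fit, at both ages (limma, adjusted p = 0.0139 and 0.0131). It passed the filter only through the 3-month libraries, and each call held in 6 of 9 fits that left out 1 library, with adjusted p = 0.0730 and 0.0719 without 3-month library 2. The 4 endothelial markers summed to 11.78 to 14.23, 9.58 to 10.66 and 5.6 to 7.233 FPKM, and both tested ones, Egfl7 and Ramp2, fell at 24 months in that fit (limma, adjusted p = 0.0219 and 0.00697). The call of Egfl7 held in 5 of 9 fits that left out 1 library, with adjusted p = 0.0993 without 3-month library 2, and that of Ramp2 in all 9. The 6 fibroblast markers summed to 5.989 to 8.755, 10 to 11.97 and 9.42 to 16.75 FPKM, with neither of 2 tested called. The sums of the 6 immune markers overlapped between ages, at 28.06 to 62.66, 22.96 to 53.4 and 28.4 to 53.92 FPKM, and Cd74, which presents antigen, made up most of them (17.6 to 53.7 FPKM over the libraries). Fcer1g, an Fc receptor subunit of the same list, did not overlap between ages, at 3.04 to 4.59, 1.07 to 1.76 and 4.73 to 7.40 FPKM. In the protein-coding fit it fell by 0.90 ± 0.20 at 19 against 3 months (limma, adjusted p = 0.0373), in 4 of 9 fits that left out 1 library, with adjusted p = 0.123 without 3-month library 2. It rose by 1.45 ± 0.20 at 24 against 19 months (limma, adjusted p = 0.00403), in all 9. Adipocyte markers were near 0 at all ages, with sums of 2.069 to 3.19, 1.394 to 2.663 and 1.945 to 3.128 FPKM, and Cfd listed at 0 in all 9 libraries and Adipoq and Plin1 in 8. Fabp4, a fatty acid binding protein of adipocytes outside that list, was read at 0.0669, 0.419 and 0.429 FPKM at 3 months and listed at 0 in all 6 older libraries. The part of these markers in the members' results was not tested.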

How the data were processed

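RNA of 9 libraries, 3 per age, was analysed from 1 table of deposited FPKM values with 37980 rows. The genome build NCBIM37, TopHat and Cuffdiff are listed without roles, per the submitters' processing notes. No source used here gives versions, settings, strand or depth. Values were used as log2(FPKM + 1), without further scaling, and a row was tested where 3 or more libraries reached 1 FPKM. All 9 libraries entered 1 limma fit (version 3.58.1, R version 4.3.3) with age as the only factor and a mean-dependent prior variance, and the fit was tested on simulated data. Gene types came from GENCODE M21 by Ensembl identifier, which matched 32916 rows. The protein-coding fit also left out rows listed at 0 in every library of an age but at 5 FPKM or more throughout another age. The gene annotation and promoter windows are on another build than the table, so no gene coordinates are given. The members, lists, fits and alternatives were chosen with earlier results of these data known. Named beside the members were the list genes called in either fit, the closest relatives of each member, the nearest genes by profile, and some markers of cell types. Alternatives covered the rows tested, the prior, the pseudocount (0.1), scaling, the ages fitted, the replicate number and each library left out. In 7 pairs of libraries that share a number across ages, the correlations of deviations from the age means ran from -0.197 to 0.187, with 3 over 0.1, so the numbers were not taken to pair samples.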

Additional observations from a re-analysis of the deposited data

How the results depend on the processing

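In all 28 alternatives each of the 9 tested members kept the sign of its change at 19 against 3 and at 24 against 3 months. Between 19 and 24 months there were 21 sign changes, none past the threshold. Elovl3 was at 0.506 with a pseudocount of 0.1, and Far2 at -0.170 with the replicate block in either fit. With 1 library left out in either fit, the log2 change ran from -0.171 to 0.467 for Far2, from -0.029 to 0.682 for Cidea, from -0.125 to 0.093 for Soat1, from -0.492 to 0.629 for Elovl3, from -0.212 to 0.056 for Awat2 and from -0.194 to 0.045 for Dgat2.

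The number of calls depended on the settings. At 19 against 3 months members called by limma numbered 3 in the whole-table fit, 6 in the protein-coding fit, 1 each with a pseudocount of 0.1, with no filter and with quantile normalisation, and 0 each with median scaling, with only the 2 ages compared and with the replicate block, where 7 had an unadjusted p under 0.05 each time. Of all 14275 rows, 2203, 2023 and 2008 had an unadjusted p under 0.05 with median scaling, the 2 ages and the block. The replicate block in the protein-coding fit called 6. All rows called at that comparison numbered 40, against 180 in the protein-coding fit, 72 with a robust prior, 30 with a pseudocount of 0.1, 30 with quantile normalisation, 22 with no filter, 19 with median scaling, 20 with only the 2 ages, 9 with the block and 253 with the block in the protein-coding fit. At 24 against 3 months members called numbered 1, against 7 in the protein-coding fit, 4 with a robust prior, 0 without the rows listed at 0 or with the block (7 at an unadjusted p under 0.05 in each), and 5 with the block in the protein-coding fit. All rows numbered 29, against 442 in the protein-coding fit, 0 without the rows listed at 0 (2630 at an unadjusted p under 0.05), 224 with a robust prior, 8 with no filter, 14 with median scaling, 13 with the block (1806 at an unadjusted p under 0.05) and 158 with the block in the protein-coding fit. At 24 against 19 months all rows numbered 7, against 107 in the protein-coding fit, 0 without the rows listed at 0 (1504 at an unadjusted p under 0.05), 27 with a robust prior, 15 with only the 2 ages, 16 with the block and 110 with the block in the protein-coding fit.

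With 1 library left out in either fit, members called ranged from 0 to 6 at 19 against 3, from 0 to 7 at 24 against 3 and from 0 to 1 at 24 against 19 months, where the call was that of Mgst1. All rows called ranged from 9 to 230, from 7 to 456 and from 7 to 216. In the protein-coding fit alone, members called ranged from 5 to 6 and from 5 to 7 against 3 months. With the block, the protein-coding fit no longer called Mc5r (limma, adjusted p = 0.134) or Mgst1 (adjusted p = 0.0855) at 24 against 3 months. Some settings leave a smaller number of rows or libraries. The cause of these differences was not tested. The pairing by replicate number rests on labels that do not name animals, and 6 of 9 libraries matched best a library of their own number. The 24-month library 4 could not, as no library of another age has its number. Absolute depth is unknown, so no limit could be given for members listed at 0. The number of libraries, 3 per age, limits each comparison.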
